A study of Mus musculus with 6 samples.

Results

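The Wnt ligands, their receptors and their secreted antagonists were examined as 47 of the 55571 gene symbols counted in E0771 cells, a mouse mammary carcinoma cell line. The members were taken by gene symbol, whatever the values of single genes, but with earlier results of these data known. They were all Wnt, Fzd, Sfrp and Dkk genes, the co-receptor genes Lrp5, Lrp6, Ror1 and Ror2, and the secreted antagonist gene Wif1. The feedback inhibitor genes Axin2, Rnf43 and Znrf3 and the transcription factor genes Lef1 and Tcf7 were also members. RNA was sequenced from 3 libraries of E0771 cells with introduced wild-type Malt1 (Malt1-WT) and from 3 libraries of E0771 cells with a vector control, both at the basal condition. MALT1 is a paracaspase and scaffold of NF-kB signalling. The sources used here do not give the promoter of the introduced Malt1 or say whether either line is a single clone.

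Wnt proteins are lipid-modified by PORCN, carried to the cell surface by WLS and bound there by a frizzled receptor together with LRP5 or LRP6. Binding stops a complex of AXIN, APC, GSK3 and casein kinase from marking beta-catenin for destruction, so that beta-catenin reaches the nucleus and works with TCF/LEF factors, while ROR receptors serve branches that do not use beta-catenin. SFRP and WIF1 proteins bind the ligands, DKK1 and its closest relatives block or modulate LRP5 and LRP6, RNF43 and ZNRF3 remove frizzled receptors from the cell surface, and AXIN2 rebuilds the destruction complex. In the mouse mammary gland, Wnt1 and Wnt10b are known as oncogenes activated by the mouse mammary tumour virus.

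Wnt10b was the most abundant ligand per length of transcript, and Axin2 had the largest fall among the tested members. Wnt11 was the single ligand called higher, though the Malt1-WT libraries brought it into the test and its call was lost under some alternatives. The promoters of these 3 members are shown, chosen after their values were seen. Each is the 250 bases before a RefSeq start of transcription (GRCm38.p6), 5′ to 3′ on the strand of the gene, at chr11:108920099-108920348 (plus strand) for Axin2, chr7:98834862-98835111 (plus strand) for Wnt11 and chr15:98778151-98778400 (minus strand) for Wnt10b. Capitals mark matches, on either strand, to CTTTGA, the core of the TCF/LEF motif, and to the kB motif bound by NF-kB.
Axin2: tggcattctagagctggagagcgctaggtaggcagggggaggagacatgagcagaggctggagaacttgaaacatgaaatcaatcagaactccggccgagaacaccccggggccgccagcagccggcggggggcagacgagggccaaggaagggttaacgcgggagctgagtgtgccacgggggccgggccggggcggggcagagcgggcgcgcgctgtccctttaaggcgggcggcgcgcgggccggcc
Wnt11: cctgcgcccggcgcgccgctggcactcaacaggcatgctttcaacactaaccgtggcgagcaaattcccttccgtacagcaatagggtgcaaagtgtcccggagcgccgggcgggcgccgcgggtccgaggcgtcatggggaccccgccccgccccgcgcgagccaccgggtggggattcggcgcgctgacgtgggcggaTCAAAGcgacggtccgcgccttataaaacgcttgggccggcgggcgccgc
Wnt10b: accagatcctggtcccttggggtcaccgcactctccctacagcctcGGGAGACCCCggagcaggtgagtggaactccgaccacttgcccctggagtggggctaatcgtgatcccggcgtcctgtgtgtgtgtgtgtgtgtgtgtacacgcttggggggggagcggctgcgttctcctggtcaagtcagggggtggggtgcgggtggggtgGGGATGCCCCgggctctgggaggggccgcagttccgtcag
The Axin2 window held neither motif. The Wnt11 window held 1 TCF/LEF core, read on the minus strand at bases -50 to -45 from the start, and the window at the second RefSeq start of Wnt11 held neither. The Wnt10b window held 2 kB matches, at -204 to -195 and at -40 to -31, both of which match on either strand. No match overlapped one of the other motif. Of 32851 RefSeq promoter windows of the same length, 13.8% held a TCF/LEF core and 7.25% a kB match. The table held 40 windows for 32 of the members, of which 6 had a TCF/LEF core and 3 a kB match. These matches are letters in a window, and binding was not measured.

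Library totals ranged from 17601656 to 20543778 counts in Malt1-WT and from 17615241 to 19874209 counts in the vector control. Malt1 itself, as a check of the labels, averaged 305 ± 6.49 CPM (the count relative to the library's total, scaled by edgeR's TMM factors) in Malt1-WT and 30.004 ± 1.32 CPM in the vector control (SD, n = 3 each). Among 6 epithelial markers, Krt8 had 3278 counts over the Malt1-WT libraries and 4019 over the vector control libraries, and Epcam had 342 in Malt1-WT and 369 in the vector control. The other 4, Krt18 and Cdh1 among them, had at most 17 counts in a group. The summed level of the 6 was 64.0 to 69.8 CPM in Malt1-WT and 73.3 to 77.6 CPM in the vector control. Of these markers, 1 was called lower and 0 higher, where 30.2% and 31.0% of all tested genes were. The 7 fibroblast or mesenchymal markers summed to 2170 to 2176 CPM in Malt1-WT and 3578 to 3731 CPM in the vector control. Of these, 4 were called lower and 1 higher (30.2% and 31.0% of all tested genes), and Col1a2 was too low to test. Most of that sum was Vim, which averaged 1658 CPM in Malt1-WT and 3087 CPM in the vector control. The higher one was Pdgfrb, which averaged 224 CPM in Malt1-WT and 151 CPM in the vector control. The 4 basal markers summed to 27.6 to 28.7 CPM in Malt1-WT and 41.2 to 43.0 CPM in the vector control. Krt5 was at 0, and Trp63 and Acta2 were called lower, where 30.2% of all tested genes were. Krt14, too low to test, went the other way, with 12 counts in Malt1-WT and 1 in the vector control. The 3 endothelial markers summed to 10.2 to 10.8 CPM in Malt1-WT and 4.58 to 5.70 CPM in the vector control. Pecam1 was called higher, where 31.0% of all tested genes were. The 8 leukocyte markers summed to 3.36 to 4.15 CPM in Malt1-WT and 3.38 to 5.40 CPM in the vector control. Adgre1 was called higher and Lyz2 lower (31.0% and 30.2% of all tested genes). The Malt1-WT libraries alone brought Adgre1 into the test, with 81 counts in Malt1-WT and 3 in the vector control. Tyrobp was at 0, and Ptprc had 4 counts in Malt1-WT and 3 in the vector control. The part of these markers in the results for the Wnt genes was not tested.

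Of the 47 members, 18 had 0 counts in all 6 libraries, 12 had some counts but too few for the filter, and 17 were tested. The comparison asks which of the 17 differ between Malt1-WT and vector control cells. At an adjusted p under 0.05 (edgeR quasi-likelihood test, adjusted over all tested genes), 8 of the 17 were called, where 61.2% of all 13594 tested genes were. Of the 8, 5 were lower in Malt1-WT (Axin2, Fzd2, Wnt7b, Fzd5 and Znrf3; 30.2% of all tested genes were called lower) and 3 were higher (Rnf43, Wnt11 and Lrp5; 31.0% of all tested genes were called higher). In a test against a 1.5-fold change, 3 members passed, Axin2 and Fzd2 as lower and Rnf43 as higher, where 16.6% of all tested genes passed. The 3 libraries of one group lay wholly above those of the other in 9 of the 17, against 64.4% of all tested genes. The median log2 fold change of the 17 was 0.02 and that of all tested genes was -0.00286. The median size of the change, without its sign, was 0.41 for the 17 and 0.31 for all tested genes. Rnf43 reached the filter through the Malt1-WT libraries alone, with 0 of 3 vector control libraries past it, and Wnt11 with 1 of 3, so the Malt1-WT libraries brought both into the test, and their being called higher is no support for a direction of the members. Fewer cells carrying a transcript and less of it per cell cannot be told apart in these bulk libraries. Whether the 3 libraries of each line stem from separate cultures is not stated, so the p-values measure only the spread between these libraries, which may be technical.

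**Figure D1:**
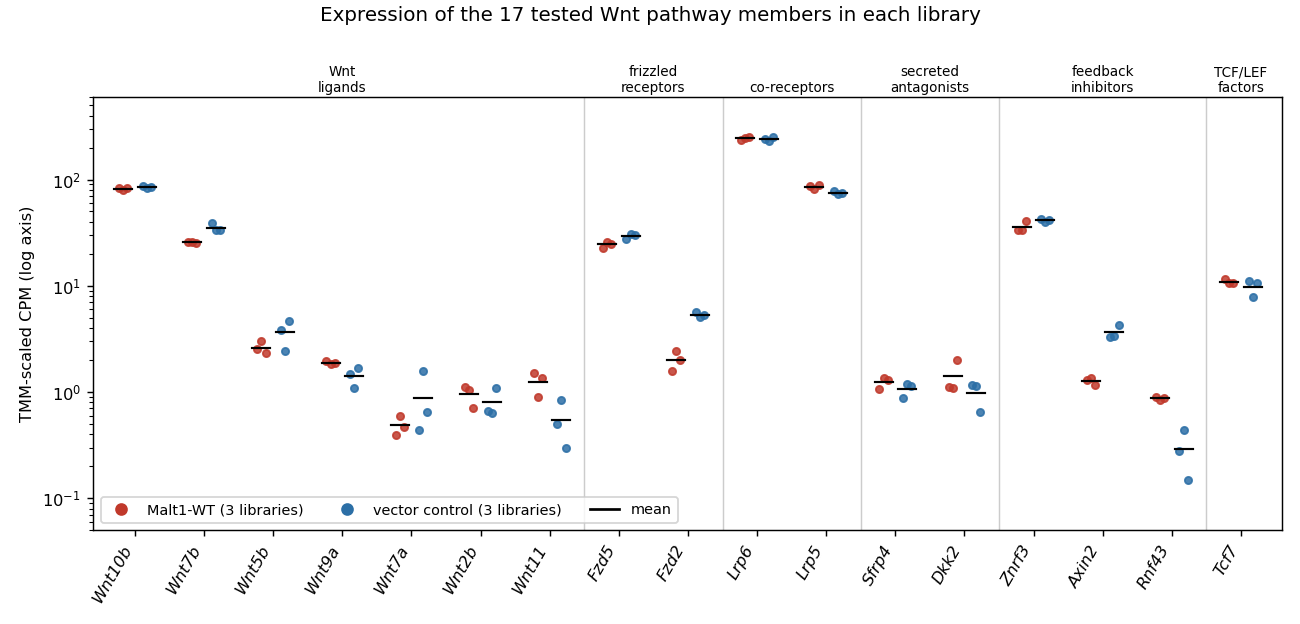
TMM-scaled CPM on a log axis for the 17 tested members, with Malt1-WT libraries in red, vector control libraries in blue and a bar at the mean of 3. Lrp6, Lrp5 and Wnt10b lie highest, and the groups stand apart for Axin2, Fzd2 and Rnf43.

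**Figure D2:**
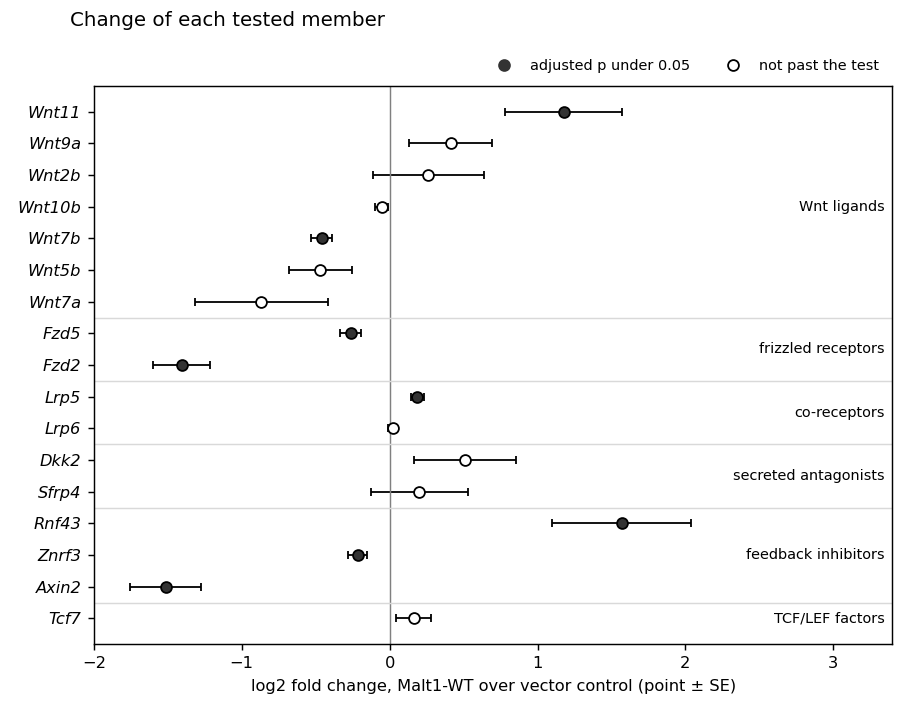
Log2 fold change of Malt1-WT over vector control for the 17 tested members, as a point with its SE, filled where the adjusted p was under 0.05. Axin2 and Fzd2 lie farthest to the left, and Rnf43 and Wnt11 farthest to the right with the widest errors among the called members.

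Of the 19 Wnt ligand genes, 7 were tested, 1 was lower (Wnt7b), 1 higher (Wnt11) and 5 did not pass. Over all tested genes, 30.2% were called lower and 31.0% higher. Wnt10b, whose product activates beta-catenin signalling, had 82.9, 79.4 and 83.3 CPM in Malt1-WT, against 87.0, 83.6 and 84.2 CPM in the vector control. All Malt1-WT libraries lay below all vector control libraries, but by little: the log2 fold change was -0.05 (SE 0.043, edgeR adjusted p = 0.29). With scaling by library size alone it was -0.13 (edgeR adjusted p = 0.00807), a setting that placed the median of all genes at -0.08. Per kilobase of exon, the mean level of Wnt10b was 24.1 CPM in Malt1-WT and 24.97 CPM in the vector control, the highest of the ligands in both groups. Its promoter, shown above, held 2 kB matches.

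Wnt7b, which also acts through beta-catenin in several mouse tissues, had 25.7, 26.1 and 25.1 CPM in Malt1-WT, against 39.4, 33.2 and 33.3 CPM in the vector control. The groups did not overlap, and Wnt7b fell by 27.2% (log2 fold change -0.46, SE 0.071, edgeR adjusted p = 1.6e-07), which did not pass the test against a 1.5-fold change. A gene on the opposite strand that shares exon bases with it, AU022754, had 5 counts in Malt1-WT and 6 in the vector control. Together Wnt10b and Wnt7b made up most of the ligand transcripts when each gene's CPM was divided by its exon length. Wnt10b held 75.8%, 74.6% and 77.0% of the summed ligand level in Malt1-WT, against 70.5%, 72.9% and 71.7% in the vector control. Wnt7b held 16.3%, 16.996% and 16.1% in Malt1-WT, against 22.2%, 20.1% and 19.7% in the vector control. These shares are ratios within a library and do not depend on its scaling. A smaller share of Wnt7b by itself makes that of Wnt10b larger, so the 2 shares are not separate results. The shares did not overlap between groups for either gene. The exact two-sided permutation test gave p = 0.10 for both, the smallest value that 3 against 3 libraries allow (p = 0.10 after adjustment over the 4 share comparisons made).

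**Figure D3:**
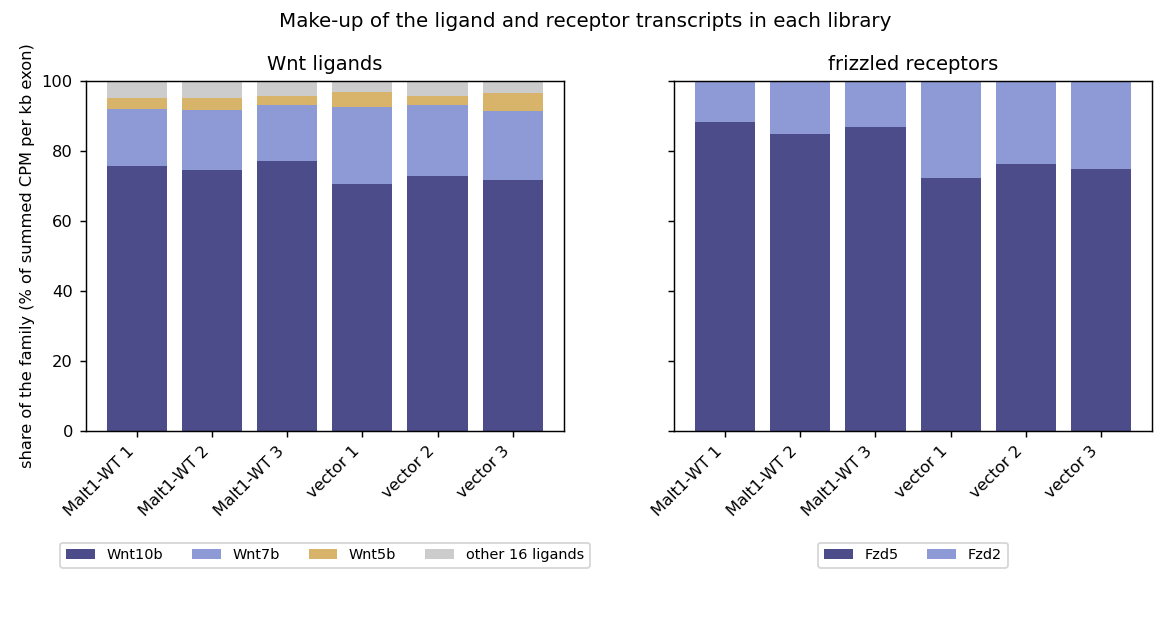
Share of each gene in the summed CPM per kilobase of exon of all Wnt ligands (left) and all frizzled receptors (right), 1 bar per library, Malt1-WT to the left of vector control. Fzd5 held 84.9% to 88.4% of the receptor transcripts in Malt1-WT and 72.2% to 76.2% in the vector control.

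Wnt11, a ligand known for signalling that does not use beta-catenin, had 27, 18 and 23 counts in Malt1-WT, against 9, 17 and 6 counts in the vector control. As CPM these were 1.51, 0.899 and 1.35 in Malt1-WT and 0.497, 0.835 and 0.298 in the vector control. The lowest Malt1-WT library and the highest vector control library nearly met. Only 1 of 3 vector control libraries was past the filter, so the Malt1-WT libraries brought Wnt11 into the test. The log2 fold change was 1.18 (SE 0.39, edgeR adjusted p = 0.0085), and it no longer passed without Malt1-WT replicate 1 (edgeR adjusted p = 0.0554) or with vector control replicate 3 left out (edgeR adjusted p = 0.0774). Over all 14 alternatives its adjusted p ranged from 0.00249 to 0.0774 where it was tested.

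Wnt5b, another ligand of the branches outside beta-catenin, had 2.52, 2.995 and 2.34 CPM in Malt1-WT, against 3.86, 2.41 and 4.67 CPM in the vector control. The groups overlapped (log2 fold change -0.47, SE 0.21, edgeR adjusted p = 0.0552), and Wnt5b passed without vector control replicate 2 (-0.71, edgeR adjusted p = 0.00311). Without Malt1-WT replicate 2 it also passed (-0.59, edgeR adjusted p = 0.0341), as it did with upper quartile scaling (0.0461) and library size only (0.025). Without vector control replicate 3 it was -0.24 (edgeR adjusted p = 0.41). Wnt7a had 7, 12 and 8 counts in Malt1-WT, against 8, 32 and 13 counts in the vector control, where replicate 2 stood above the other libraries (log2 fold change -0.87, SE 0.45, edgeR adjusted p = 0.0903). Without vector control replicate 1 it passed (-1.18, edgeR adjusted p = 0.0263). The change of Wnt7a was -0.16 (edgeR adjusted p = 0.83) without vector control replicate 2.

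Wnt9a averaged 1.89 ± 0.0581 CPM in Malt1-WT and 1.42 ± 0.311 CPM in the vector control (SD, n = 3 each), with a log2 fold change of 0.41 (SE 0.28, edgeR adjusted p = 0.202). Wnt2b averaged 0.956 ± 0.223 CPM in Malt1-WT and 0.798 ± 0.256 CPM in the vector control (SD, n = 3 each), with a log2 fold change of 0.26 (SE 0.37, edgeR adjusted p = 0.57). The Wnt9a libraries did not overlap between groups and those of Wnt2b did.

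The other 12 ligand genes had few counts or none. Summed over the 3 Malt1-WT libraries, Wnt5a had 13 counts, Wnt10a 9, Wnt1 7, Wnt6 5, Wnt8a 2, and Wnt16, Wnt8b and Wnt3 1 each. Over the 3 vector control libraries, Wnt5a had 12 counts, Wnt10a 9, Wnt1 3, Wnt6 4, Wnt8a 7, Wnt16 6, Wnt8b 2 and Wnt3 0. None of these 8 passed the edgeR test with no filter on low counts (adjusted p 0.405 to 0.988). Wnt2, Wnt3a, Wnt4 and Wnt9b had 0 counts in every library, which allows a level of up to 0.150 to 0.175 CPM in a Malt1-WT library and 0.147 to 0.166 CPM in a vector control library (3 counts, counting error only). Of the ligands named above as mouse mammary oncogenes, Wnt1 thus had few counts and Wnt10b many.

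Of the 10 frizzled receptor genes, only Fzd5 and Fzd2 had any count, and both were lower in Malt1-WT, where 30.2% of all tested genes were. Fzd1, Fzd3, Fzd4, Fzd6, Fzd7, Fzd8, Fzd9 and Fzd10 had 0 counts in all 6 libraries, under the same limit as above. Fzd2 had 28, 49 and 34 counts in Malt1-WT, against 102, 104 and 107 counts in the vector control, or 1.57, 2.45 and 1.99 CPM in Malt1-WT and 5.63, 5.11 and 5.32 CPM in the vector control. Every Malt1-WT library lay well below every vector control library. Fzd2 was 2.65-fold lower (log2 fold change -1.41, SE 0.19, edgeR adjusted p = 9.6e-09), and its adjusted p was 7.4e-05 against a 1.5-fold change. It is a gene without introns on chromosome 11 (102604396 to 102608058, plus strand, GRCm38).

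Fzd5 had 22.4, 26.1 and 24.97 CPM in Malt1-WT, against 27.5, 30.8 and 29.8 CPM in the vector control. The groups did not overlap, and Fzd5 fell by 16.7% (log2 fold change -0.26, SE 0.073, edgeR adjusted p = 0.0016). Fzd5 (chromosome 1, 64730558 to 64737751, minus strand) shares exon sequence with a gene on the opposite strand, Gm38058, which had 144 counts in Malt1-WT and 110 in the vector control, while Fzd5 had 1350 counts in Malt1-WT and 1727 in the vector control. The make-up of the receptor transcripts is the measure that sets the genes against each other: per kilobase of exon, Fzd5 held 88.4%, 84.9% and 86.9% of them in Malt1-WT, against 72.2%, 76.2% and 74.8% in the vector control. That is a difference of 12.4 percentage points with no overlap, at the smallest p that the exact two-sided permutation test allows here (p = 0.10). Fzd2 held the rest of each library, so the larger share of Fzd5 is not a result separate from the fall of Fzd2. Summed over both genes, the frizzled level was 3.67, 4.44 and 4.15 CPM per kilobase in Malt1-WT, against 5.52, 5.85 and 5.77 CPM per kilobase in the vector control, with no overlap. These sums were not tested.

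Per kilobase of exon, the co-receptor genes Lrp5 and Lrp6 were both more abundant than either frizzled gene. Lrp6 had 234, 247 and 250 CPM in Malt1-WT, against 240, 233 and 249 CPM in the vector control, and the groups overlapped. Its log2 fold change was 0.02 (SE 0.033, edgeR adjusted p = 0.63), with a sign that turned under 3 of the 14 alternatives. Lrp5 had 86.0, 82.0 and 88.8 CPM in Malt1-WT, against 77.6, 73.2 and 74.9 CPM in the vector control, without overlap. Lrp5 rose by 13.8% (log2 fold change 0.19, SE 0.045, edgeR adjusted p = 0.0003), and passed under all 14 alternatives (adjusted p up to 0.029). Per kilobase of exon, Lrp6 was at 17.8 CPM in Malt1-WT and 17.6 CPM in the vector control, and Lrp5 was at 8.79 CPM in Malt1-WT and 7.72 CPM in the vector control. Lrp6 held 66.0% to 68.2% of the 2 co-receptor transcripts in Malt1-WT and 68.8% to 70.3% in the vector control (exact two-sided permutation p = 0.10). Lrp5 held the rest, so this share is not a result separate from the change of Lrp5. The receptor tyrosine kinase-like gene Ror2 had 0 counts in all libraries, and Ror1 had 2 counts in Malt1-WT and 3 in the vector control.

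Of the 9 secreted antagonist genes, Dkk1, Sfrp2, Sfrp5 and Wif1 had 0 counts in every library and Dkk4 had 1 count in all. The 2 that were tested did not pass, where 61.2% of all tested genes did. Dkk2 had 20, 22 and 34 counts in Malt1-WT, against 21, 23 and 13 counts in the vector control (log2 fold change 0.51, SE 0.34, edgeR adjusted p = 0.2). Sfrp4 had 19, 27 and 22 counts in Malt1-WT, against 16, 24 and 23 counts in the vector control (log2 fold change 0.20, SE 0.33, edgeR adjusted p = 0.62). Both overlapped between groups.

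Sfrp1 and Dkk3 were too low for the filter. Sfrp1 had 1, 1 and 1 counts in Malt1-WT, against 6, 9 and 6 counts in the vector control. Its ratio of summed scaled counts was 0.152 (95% interval 0.0291 to 0.510, exact Clopper-Pearson, counting error only), and with no filter on low counts it passed the edgeR test (adjusted p = 0.0286). Dkk3 had 0, 0 and 0 counts in Malt1-WT, against 0, 4 and 4 counts in the vector control, and did not pass with no filter (edgeR adjusted p = 0.0686).

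Beta-catenin signalling is known to switch on the 3 feedback inhibitor genes in many tissues. Axin2 and Znrf3 were called lower, where 30.2% of all tested genes were. Rnf43, which the Malt1-WT libraries alone brought into the test, was called higher, where 31.0% of all tested genes were. Axin2 had 23, 27 and 20 counts in Malt1-WT, against 59, 69 and 86 counts in the vector control. As CPM these were 1.29, 1.35 and 1.17 in Malt1-WT and 3.26, 3.39 and 4.28 in the vector control, with a wide gap between the groups. Axin2 was 2.86-fold lower (log2 fold change -1.52, SE 0.24). Its edgeR adjusted p was 2.3e-07, with an adjusted p of 0.000234 against a 1.5-fold change, and 2.02% of all tested genes had a lower log2 fold change. Its range over the 14 alternatives was -1.59 to -1.38. A gene on the opposite strand that shares exon bases with Axin2, Gm11670, had 1 count in all libraries together. Axin2 lies on chromosome 11 (108920349 to 108950783, plus strand). Its promoter window shown above held no TCF/LEF core, and its sequence outside that window was not searched.

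Rnf43, a ubiquitin ligase gene, had low counts: 16, 17 and 15 counts in Malt1-WT, against 5, 9 and 3 counts in the vector control, or 0.895, 0.849 and 0.877 CPM in Malt1-WT and 0.276, 0.442 and 0.149 CPM in the vector control. The groups did not overlap. The log2 fold change was 1.57 (SE 0.47, edgeR adjusted p = 0.0034), and it passed against no change wherever it was tested (adjusted p up to 0.0368). Its adjusted p against a 1.5-fold change was 0.0378, and that call held under 4 of the 14 alternatives; it was lost when any library other than vector control replicate 2 was left out. Znrf3, the related ligase gene, had 33.1, 33.1 and 40.5 CPM in Malt1-WT, against 42.3, 39.9 and 41.6 CPM in the vector control. Malt1-WT replicate 3 lay within the range of the vector control, and the others lay below it. Znrf3 fell by 13.9% (log2 fold change -0.22, SE 0.066, edgeR adjusted p = 0.0038). Without Malt1-WT replicate 3 its log2 fold change was -0.32. Per kilobase of exon, Znrf3 was the most abundant of the 3, at 4.51 CPM in Malt1-WT and 5.23 CPM in the vector control. On the same scale Rnf43 was at 0.133 CPM in Malt1-WT and 0.0441 CPM in the vector control, and Axin2 at 0.230 CPM in Malt1-WT and 0.661 CPM in the vector control.

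Of the transcription factor genes among the members, Lef1 had 0 counts in all libraries. Tcf7 had 11.7, 10.5 and 10.6 CPM in Malt1-WT, against 11.04, 7.86 and 10.5 CPM in the vector control, where replicate 2 was lowest (log2 fold change 0.16, SE 0.12, edgeR adjusted p = 0.24). Other TCF factors are given with the rest of the pathway.

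Among 78 other genes of the pathway, 12 had 0 counts, 10 were too low and 56 were tested, of which 17 were higher, 25 lower and 14 did not pass. That is 75% called, where 61.2% of all tested genes were (31.0% higher and 30.2% lower). The lists were chosen with earlier results of these data known. This share and those of the single lists below are therefore no support for a change of the pathway. The median log2 fold change of the 56 was -0.07. The carrier gene Wls averaged 118 ± 2.999 CPM in Malt1-WT and 141 ± 1.599 CPM in the vector control (SD, n = 3 each; log2 fold change -0.25, SE 0.037, edgeR adjusted p = 5.0e-08). Porcn, the acyltransferase gene, averaged 7.62 ± 1.34 CPM in Malt1-WT and 6.01 ± 0.146 CPM in the vector control (0.34, SE 0.14, edgeR adjusted p = 0.031), and passed under 7 of the 14 alternatives. Without Malt1-WT replicate 3 its change was 0.20 (edgeR adjusted p = 0.26). Its adjusted p was also over the threshold without Malt1-WT replicate 2 (0.0589), vector control replicate 2 (0.064) or vector control replicate 3 (0.072).

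In the destruction complex and cytoplasmic list, 9 of 18 tested genes were called higher and 3 lower (31.0% and 30.2% of all tested genes), 6 did not pass, and 0 passed 1.5-fold. Ctnnb1, the beta-catenin gene itself, had 493, 504 and 512 CPM in Malt1-WT, against 418, 425 and 436 CPM in the vector control (log2 fold change 0.24, SE 0.029, edgeR adjusted p = 3.4e-10). In the nuclear list, 11 of 13 tested genes were called lower and 0 higher (30.2% and 31.0% of all tested genes), and Tle3 and Tle4 did not pass. The 2 past 1.5-fold were Tle2 and Tle5, of the Groucho/TLE family, whose proteins act as co-repressors of TCF factors or, for TLE5, modulate the others. Tle2 had 2.52, 3.54 and 2.92 CPM in Malt1-WT, against 15.8, 13.9 and 16.1 CPM in the vector control, a 5.05-fold lower level (log2 fold change -2.34, SE 0.14, edgeR adjusted p = 4.7e-21). Tle5, counted under its older symbol Aes, had 22.3, 23.5 and 22.6 CPM in Malt1-WT, against 94.1, 98.8 and 95.8 CPM in the vector control, a 4.22-fold lower level (-2.08, SE 0.054, edgeR adjusted p = 8.6e-36). Both lay far below the vector control in every library. The 2 genes lie close together on the plus strand of chromosome 10, Tle5 at 81559488 to 81566362 and Tle2 at 81574561 to 81590845. Their falls may therefore not be separate results, and whether they are was not tested. Tle2 shares some exon bases with Gm15917 on the opposite strand, and Ctnnb1 with Ulk4, and the strand setting of the counting is unknown. Tcf7l2 (-0.39, SE 0.084, edgeR adjusted p = 7.3e-05) and Tcf7l1 (-0.26, SE 0.091, edgeR adjusted p = 0.013) were lower by much less, and Tcf7l1 no longer passed with vector control replicate 3 left out (edgeR adjusted p = 0.0519).

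In the planar polarity list, 3 of 7 tested genes were called higher and 2 lower (31.0% and 30.2% of all tested genes), and 2 did not pass. The pair of Prickle genes moved in opposite directions. Prickle1 had 6.77, 5.29 and 6.61 CPM in Malt1-WT, against 1.82, 2.60 and 1.79 CPM in the vector control (log2 fold change 1.57, SE 0.19, edgeR adjusted p = 2.4e-10). Prickle2 had 1.17, 1.25 and 1.58 CPM in Malt1-WT, against 4.03, 2.701 and 3.13 CPM in the vector control (-1.30, SE 0.25, edgeR adjusted p = 9.9e-06). The cadherin-type polarity gene Celsr1 averaged 8.84 ± 0.611 CPM in Malt1-WT and 3.61 ± 0.298 CPM in the vector control (SD, n = 3 each; log2 fold change 1.29, SE 0.15, edgeR adjusted p = 4.8e-11).

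Of the genes listed as known beta-catenin targets, 3 of 7 tested were called higher and 4 lower (31.0% and 30.2% of all tested genes), and Lgr5, among the lower ones, reached the filter through the vector control libraries alone. Apcdd1, which also encodes a membrane inhibitor of the pathway, averaged 7.63 ± 0.698 CPM in Malt1-WT and 23.8 ± 0.303 CPM in the vector control (SD, n = 3 each), a 3.11-fold lower level (log2 fold change -1.64, SE 0.096, edgeR adjusted p = 7.4e-21). Cd44, an adhesion receptor gene, averaged 1043 ± 15.4 CPM in Malt1-WT and 513 ± 5.51 CPM in the vector control (SD, n = 3 each; 1.02, SE 0.026, edgeR adjusted p = 4.6e-36). Among the co-receptors and modulators, 4 of 8 tested genes were called lower and 1 higher (30.2% and 31.0% of all tested genes). Reck, which encodes a membrane protein of WNT7 signalling, was the higher one, with 24, 30 and 24 counts in Malt1-WT, against 9, 16 and 9 counts in the vector control (1.28, SE 0.36, edgeR adjusted p = 0.002). The Malt1-WT libraries brought Reck into the test, with 1 of 3 vector control libraries past the filter, and it did not pass against 1.5-fold (edgeR adjusted p = 0.0508). Adgra2, which encodes the partner of RECK in WNT7 signalling and is named here after its values were seen, had 6.04, 6.74 and 8.07 CPM in Malt1-WT, against 11.7, 11.6 and 13.6 CPM in the vector control, without overlap. It was called lower (-0.83, SE 0.12, edgeR adjusted p = 4.6e-08) and passed against 1.5-fold (edgeR adjusted p = 0.04). A few of its exon bases are shared with Brf2 on the opposite strand. In the R-spondin list, 2 of 3 tested genes, Lgr4 and Lgr5, were called lower and 0 higher (30.2% and 31.0% of all tested genes). The ligand genes Rspo1 to Rspo4 were at 0 or too low to test.

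**Figure D4:**
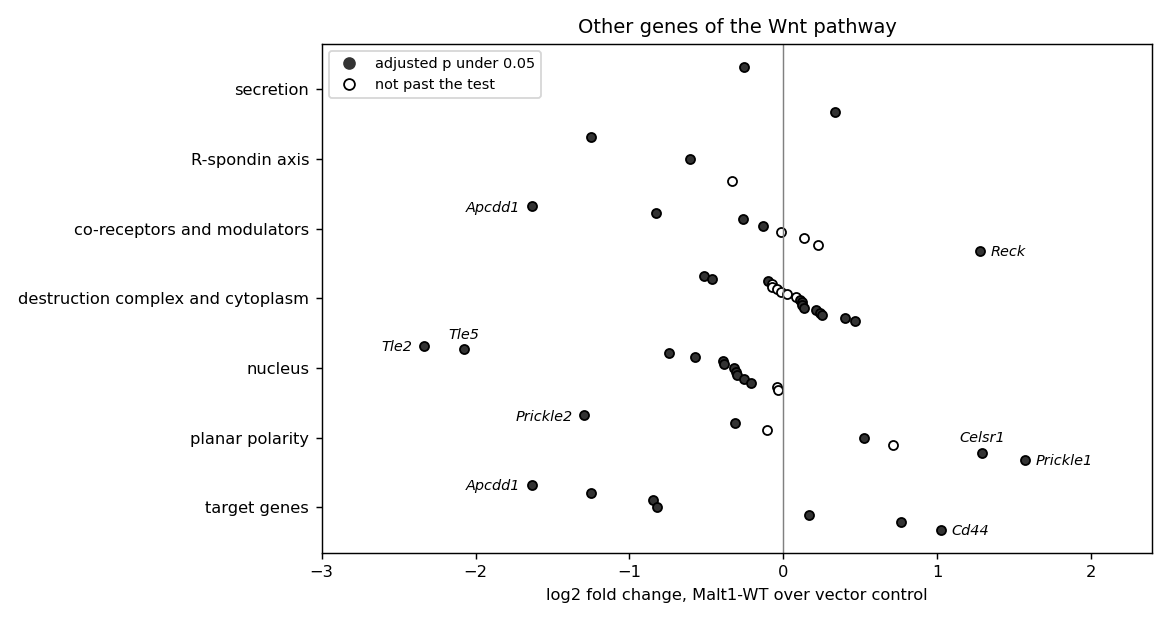
Log2 fold change of Malt1-WT over vector control for the tested genes of 7 lists of other Wnt pathway genes, 1 point per gene, filled where the adjusted p was under 0.05. Apcdd1 and Lgr5 stand in 2 lists each, and Tle2 and Tle5 lie farthest to the left.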

How the data were processed

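RNA of 6 libraries, grouped by their titles, was sequenced. Per the labels' protocols, libraries were made from total RNA with a directional kit and sequenced paired-end. Per the submitters' processing notes, the tools were featureCounts 1.6.3, STAR 2.7.3a and Trim Galore 0.6.0, on the build GRCm38.p6 (mm10). The annotation and strand setting are not given there, so reads of overlapping antisense genes cannot be assigned with certainty. The authors deposited raw counts per gene symbol, 1 column per library, without normalization, for 55571 symbols, of which 28089 had no count.

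Counts were analysed in R 4.3.3 with edgeR 4.0.16. The filter on low counts was filterByExpr with a minimum count of 10 (a CPM of 0.526 in at least 3 libraries), TMM scaling was applied, and the robust quasi-likelihood test was adjusted by Benjamini-Hochberg over 13594 genes and called at 0.05. The second test was glmTreat against 1.5-fold. An SE is the log2 fold change divided by the square root of F. DESeq2 1.42.0 and limma 3.58.1 (voom) were alternatives, beside other scalings and filters, a replicate block and leaving out each library. The tests were also run on simulated data in which far fewer genes changed than were called here, so that run does not cover such a case. No 2 libraries agreed within sampling noise (chi-square per degree of freedom 2.13 to 2.87 within groups and 96.4 to 107 between them), and each counted as a sample.

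Exon lengths (union of exons) and positions came from GENCODE M21 and promoters from RefSeq, both on GRCm38. Fully described were called members with at least 1 CPM in a group or past 2-fold; of the other pathway genes, the 4 largest called changes in each direction and Wls, Porcn, Ctnnb1, Tcf7l1 and Tcf7l2 were named, with a few more chosen after their values were seen. The members and lists were chosen with earlier results of these data known.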

Additional observations from a re-analysis of the deposited data

How the results depend on the processing

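The counts of called genes given below and the log2 fold changes of 31 genes were recomputed under 14 alternatives, where the gene was tested. The shares, the summed levels, the marker calls and the other genes named, Adgra2, Lgr4 and Lgr5 among them, were not recomputed. The number of members called higher was 3, and 1 with a minimum count of 30, where Rnf43 and Wnt11 were not tested. Left out 1 at a time, the libraries gave 2 to 3 members higher, 5 to 6 lower and 2 to 4 past 1.5-fold, 38 to 43 other pathway genes called and 7878 to 8074 genes changed. Under the other alternatives the members called lower numbered 5 to 7, with Wnt5b and Wnt10b added with library size only. Lrp6 turned to -0.057 with library size only, to -0.0046 without Malt1-WT replicate 3 and to -0.0081 without vector control replicate 2, within a range of -0.0081 to 0.0424 over the libraries left out. Of the values of the 31 genes with a recomputed log2 fold change, 408 kept their direction and side of the threshold, 10 lost the call, 6 gained it and 3 turned. The groups share replicate numbers, but libraries of the same number did not deviate together (correlations of -0.03, -0.02 and 0.02 for numbers 1, 2 and 3). With the replicate number as a block, 3 members were higher, 5 lower and 3 past 1.5-fold, 42 other pathway genes were called and 8168 genes changed, and all 8 members called without the block were called with it. Tested members averaging fewer than 30 counts per library (Rnf43, Wnt11, Wnt7a, Wnt2b, Dkk2 and Sfrp4) have an SE of 0.33 or more on the log2 scale, which limits the changes detectable at this depth.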
